A study of Saccharomyces cerevisiae with 8 samples.

Results

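Monosome footprints were compared with polysome footprints of budding yeast (Saccharomyces cerevisiae), in 4 of the 8 libraries of the series. The 4 libraries were chosen by their labels, not by any measured value: 2 replicates of monosome footprints and 2 of polysome footprints. A ribosome footprint is the short stretch of mRNA that a ribosome shields from RNase. All groups came from cells in rich glucose medium (YEPD) at 30 °C, taken at an OD600 of 0.6 after 2 min in 100 ug/ml cycloheximide, a drug that halts elongating ribosomes. The strain and its genotype are not given in the labels. For the monosome group, the fractions with 1 ribosome per mRNA were taken from a sucrose gradient of cleared lysate, digested with RNase I and passed over a further gradient. For the polysome group, the fractions with several ribosomes per mRNA were taken through the same steps. Global footprints of undivided lysate and fragmented mRNA, with 2 libraries each, share the fit and serve below only as further readouts. No label says that the replicates were separate cultures, so p-values measure only how far these libraries vary, and that spread can be technical.

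An mRNA that is translated often, relative to the time a ribosome needs to cross it, carries several ribosomes and sediments as a polysome, whereas a rarely initiated mRNA, or an mRNA with a short reading frame, often carries a single 80S ribosome. mRNAs for secreted and membrane proteins are mostly bound at the endoplasmic reticulum (ER): the signal recognition particle takes the emerging signal sequence to the Sec61 channel, and the chain enters or crosses the membrane as it is made. Tail-anchored proteins, whose only membrane segment is at the end of the chain, are inserted after translation has ended, and most mitochondrial proteins are imported from the cytosol.

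The monosome libraries held 4723489 and 6443263 counts and the polysome libraries 8686385 and 7494965. Of 6692 genes in the table, 5336 passed the low-count filter and were tested with edgeR's quasi-likelihood test. Levels are given as CPM, each count relative to its library total after TMM correction, and a change is a log2 fold change of monosome over polysome. The SE is that change divided by the square root of its F statistic. Genes higher in monosomes numbered 1954 (36.6% of those tested) and genes lower 1790 (33.5%) at an edgeR adjusted p under 0.05, together 70.2%. Each gene list below is to be read against these shares and against the median change of 0.05 over all genes. Scaled by library totals alone, the median became 0.50 and the calls 3030 higher and 867 lower, so every direction is relative to the TMM scale. The 8 mitochondrially encoded protein genes, which ribosomes of the mitochondrion translate, gave 5 to 24 counts in all per library.

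Mannosyltransferases of the secretory pathway were mostly higher in monosomes. They build the mannose chains of glycoproteins in the ER and Golgi and are membrane proteins. Of 28 protein O- and N-mannosyltransferases, 25 were higher in monosomes and 0 were lower with edgeR, with a median change of 1.30. The mannosyltransferases together gave 831 and 898 CPM in monosomes, against 352 and 353 CPM in polysomes. MNN1, which adds the terminal alpha-1,3-mannose in the Golgi, had 27.5 and 29.7 CPM in monosomes and 4.32 and 6.79 CPM in polysomes (change 2.38, SE 0.19, edgeR adjusted p = 9.11e-21). MNN9, a subunit of the Golgi mannan polymerase complexes, had 98.3 and 120.8 CPM in monosomes and 24.7 and 28.3 CPM in polysomes (2.06, SE 0.12). For OCH1, which starts the outer chain, the levels were 59.3 and 73.2 CPM in monosomes, against 16.9 and 17.9 CPM in polysomes (1.94, SE 0.13). In all 3 genes the lowest monosome library lay well above the highest polysome library. Over all genes tested, 84.4% had no overlap between fractions. The 3 that did not pass were KTR5 (0.83, SE 0.49) and the O-mannosyltransferases of the ER PMT1 (0.14, SE 0.13, edgeR adjusted p = 0.329) and PMT3 (-0.25, SE 0.26, edgeR adjusted p = 0.388).

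Most genes of the machinery that admits chains to the ER were higher in monosomes. Of 18 translocon and oligosaccharyltransferase genes, 16 were higher and 1 was lower, with a median change of 0.81. SEC61, the channel, had 117.7 and 152.7 CPM in monosomes and 89.1 and 78.5 CPM in polysomes (change 0.70, SE 0.11, edgeR adjusted p = 1.06e-08). STT3, the catalytic subunit that transfers the glycan, had 80.0 and 87.7 CPM in monosomes and 29.3 and 30.1 CPM in polysomes (1.50, SE 0.12). The groups did not overlap in either gene, as in 84.4% of all genes tested. OST4, a gene of 111 nt, changed most in the list (2.92, SE 0.11). The lower member was SSS1, the small gamma subunit of the channel (-0.27, edgeR adjusted p = 0.0104). Its call was lost without monosome replicate 2 (-0.21) and without polysome replicate 1 or 2 (-0.25 each) and with DESeq2 (-0.24), and its sign turned with library totals (0.19).

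Most genes of the signal recognition particle were lower on the TMM scale. Of its 8 genes with the receptor, 5 were lower and 2 higher, and the median of -0.35 turned to 0.11 with library totals. SRP54, the GTPase that binds signal sequences, had 105.4 and 94.6 CPM in monosomes and 199.7 and 210.7 CPM in polysomes (change -1.04, SE 0.10, edgeR adjusted p = 5.88e-17). SEC65 was also lower (-0.98, SE 0.10). The higher members were the receptor subunit that spans the ER membrane (0.59, SE 0.16) and the particle subunit SRP21 (0.82, SE 0.10).

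In the lists of permeases, transporters and P-type ATPases, genes were higher in monosomes or did not pass the test. Of 21 amino acid permeases tested of 22, 10 were higher and 0 lower with edgeR, with a median change of 0.51. Of 29 metal, ammonium, phosphate and nucleobase transport genes tested of 30, 19 were higher and 0 lower (median 0.86). FTR1, the iron permease, had 168.5 and 199.1 CPM in monosomes and 79.4 and 66.5 CPM in polysomes (1.33, SE 0.10). FET3, the oxidase that feeds iron to it, had 159.7 and 216.6 CPM in monosomes and 88.7 and 90.9 CPM in polysomes (1.07, SE 0.12). Both iron uptake genes had every monosome library above every polysome library, and 84.4% of all genes tested had no overlap in 1 direction or the other. The phosphate transporter gene PHO84 rose by less (0.80, SE 0.12), as against the permease genes DIP5 for acidic amino acids (1.16, SE 0.10) and MUP3 for methionine (2.77, SE 0.24). P-type ATPases, ion and lipid pumps with several membrane spans, were higher in 6 of 15 tested, or 40.0%, near the 36.6% of all genes, and lower in 0 with edgeR (median 0.29). The number higher fell to 2 without monosome replicate 2 and to 3 without polysome replicate 1. PMA1, the proton pump, had 1100.8 and 1256.3 CPM in monosomes and 988.9 and 933.8 CPM in polysomes (change 0.29, SE 0.13, edgeR adjusted p = 0.0336). Its call was lost without monosome replicate 2 (0.23), polysome replicate 1 (0.37) or polysome replicate 2 (0.26), whereas the flippase gene NEO1 (1.39, SE 0.12) and the ER ATPase gene SPF1 (0.97, SE 0.12) kept theirs.

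**Figure D1:**
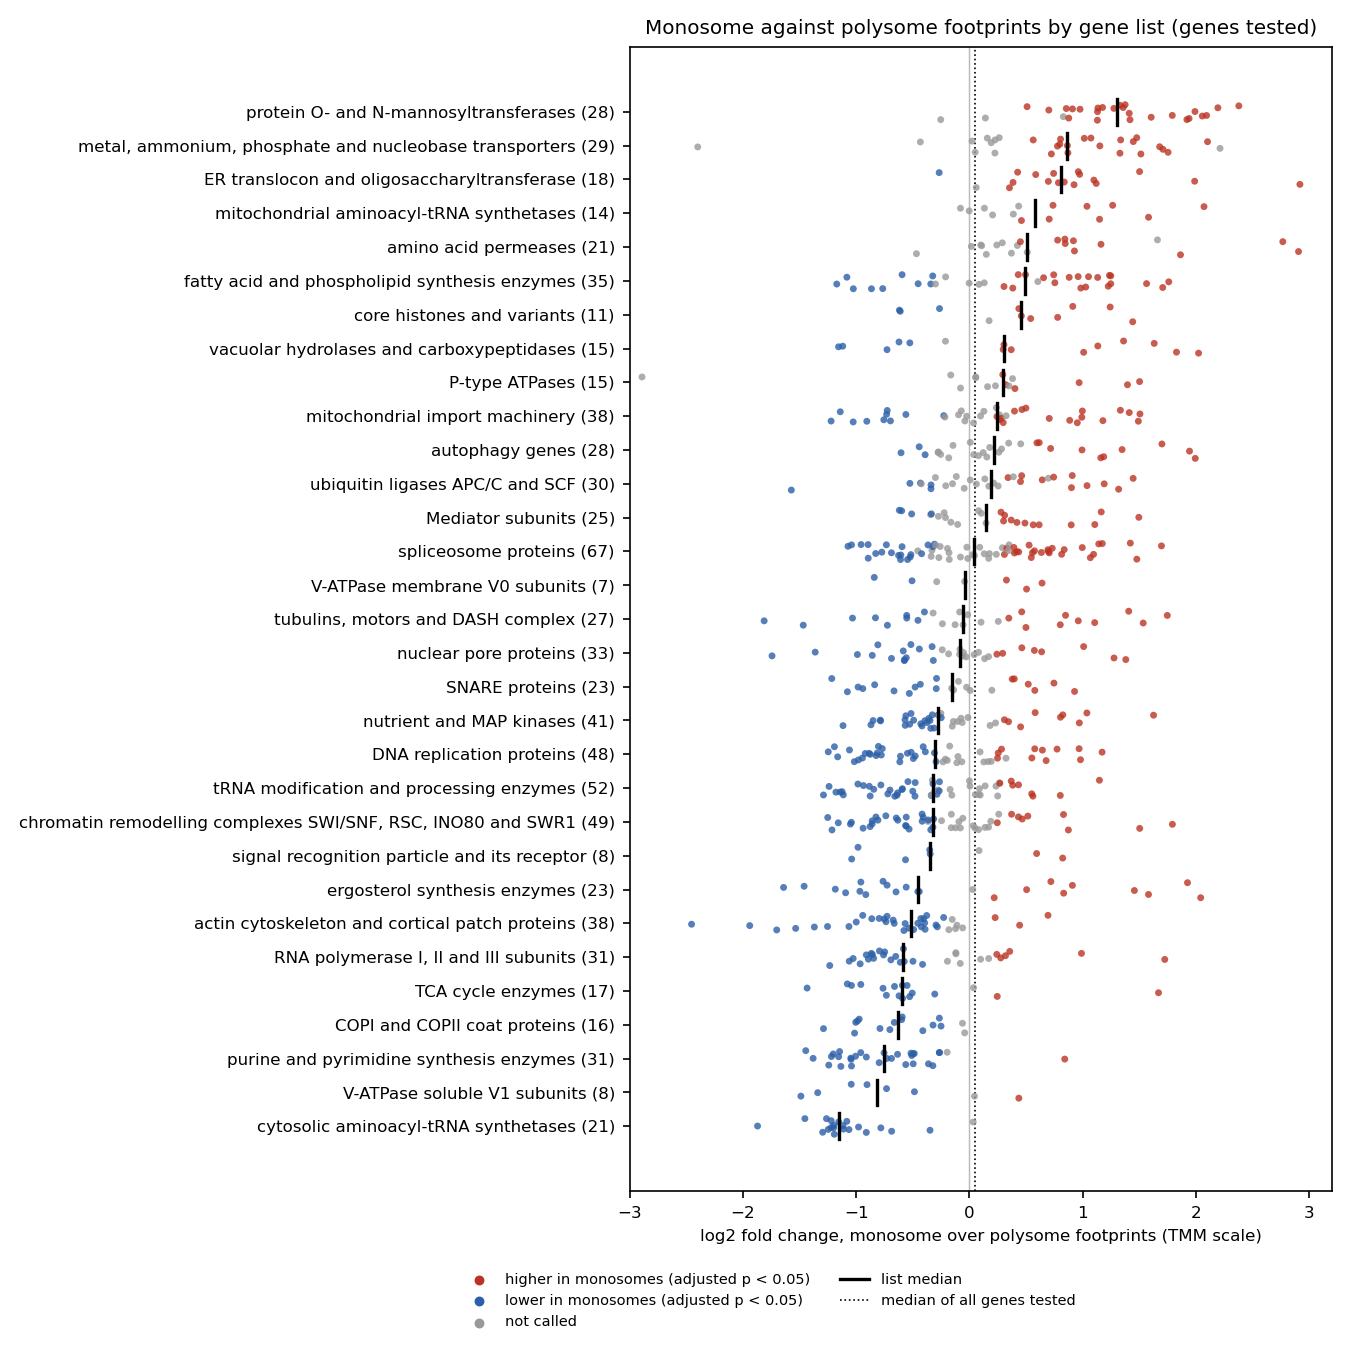
Log2 fold changes of monosome over polysome footprints (x axis, TMM scale) for the tested genes of each list (rows, number tested in brackets), 1 point a gene, coloured by the edgeR call; the thick bar is the list median and the dotted line the median of all genes. Mannosyltransferases (median 1.30) stand at the top and cytosolic aminoacyl-tRNA synthetases (median -1.15) at the bottom of the lists drawn; glycolysis enzymes, translation factors, meiosis genes and mitochondrially encoded genes are not drawn.

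Some pathways hold both soluble and membrane enzymes. The groupings by the place of each protein used below were made after the values were seen, so their counts describe these genes and support nothing. Of 23 enzymes of ergosterol synthesis, which makes the sterol of yeast membranes, 9 were higher and 13 lower (median -0.46). All 7 cytosolic enzymes were lower in monosomes (median -0.91), and 9 of 10 integral ER membrane enzymes were higher (median 0.87). ERG20, the cytosolic farnesyl pyrophosphate synthase, had 150.6 and 128.7 CPM in monosomes and 461.6 and 407.0 CPM in polysomes (change -1.64, SE 0.11, edgeR adjusted p = 7.14e-26). ERG5, a membrane-bound P450 of the late pathway, had 116.8 and 115.7 CPM in monosomes and 28.1 and 28.3 CPM in polysomes (change 2.04, SE 0.11, edgeR adjusted p = 6.08e-31). ERG20 and ERG5 were the lowest and highest of the list, so their opposite sides follow from the choice. Fractions did not overlap in either gene, as in 84.4% of all genes tested. ERG2, the C-8 sterol isomerase, was near ERG5 (1.92, SE 0.11). The HMG-CoA reductase genes HMG1 (1.46, SE 0.14) and HMG2 (1.58, SE 0.16), whose proteins cross the ER membrane several times, were higher, while ERG10 (-1.18, SE 0.11), the thiolase that starts the pathway, was lower. The remaining 6 enzymes were all lower (median -0.86). They include the lipid droplet protein ERG6 (-1.46, SE 0.11) and also the membrane-bound ERG9 (-1.09, SE 0.10) and ERG1 (-0.96, SE 0.11). The part of membrane location in these changes was not tested.

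Of 35 fatty acid and phospholipid synthesis enzymes, 20 were higher and 9 lower (median 0.49). Of 13 soluble and acyl-CoA enzymes, 9 were lower and 0 higher with edgeR (median -0.45, which turned to 0.00 with library totals), and of 18 integral ER membrane enzymes 17 were higher and 0 lower (median 0.97). ACC1, acetyl-CoA carboxylase, had 453.7 and 408.6 CPM in monosomes and 905.3 and 848.7 CPM in polysomes (-1.02, SE 0.12). ELO2, an elongase of the ER, had 152.2 and 199.2 CPM in monosomes and 57.4 and 50.6 CPM in polysomes (1.71, SE 0.11). ALE1, an acyltransferase that acts on lysophospholipids, had 44.8 and 37.4 CPM in monosomes and 11.1 and 13.0 CPM in polysomes (1.76, SE 0.15). The fractions were again fully apart in these 3 genes, as in 84.4% of all genes tested. The fatty acid synthase subunit FAS2 (-1.08, SE 0.13) and the acyl-CoA synthetase FAA4 (-1.17, SE 0.11) lay with ACC1.

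Of 33 nuclear pore proteins, 8 were higher and 14 lower (median -0.09, 0.37 with library totals). The 4 integral membrane nucleoporins were higher in monosomes: POM33 (1.38, SE 0.11), NDC1 (1.28, SE 0.16), POM34 (1.01, SE 0.14) and POM152 (0.64, SE 0.18). Of the 29 other nucleoporins, 4 were higher and 14 lower; their median was -0.24, and 0.22 on library totals. POM33 had 91.2 and 85.3 CPM in monosomes and 31.6 and 36.1 CPM in polysomes. MLP1, the long coiled-coil filament of the nuclear basket, had 12.5 and 13.4 CPM in monosomes and 42.4 and 44.9 CPM in polysomes (change -1.74, SE 0.14, edgeR adjusted p = 2.39e-20).

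Vacuolar enzymes were grouped by their route. Among 9 hydrolases that enter the ER, 8 were higher and 1 lower (median 1.13), with the alkaline phosphatase gene PHO8 at 58.7 and 70.5 CPM in monosomes and 20.4 and 16.0 CPM in polysomes (1.83, SE 0.13). The dipeptidyl aminopeptidase gene DAP2 was also higher (1.63, SE 0.18). The exception was PRB1, a subtilisin-like protease that enters the ER, at 81.2 and 91.2 CPM in monosomes and 180.8 and 194.8 CPM in polysomes (-1.12, SE 0.10). The 3 enzymes made and kept folded in the cytosol were lower, among them APE1, an aminopeptidase carried to the vacuole by a selective autophagy route (-1.16, SE 0.11). NTH1, PBN1 and VHR1, which the list of 15 also holds, are not vacuolar hydrolases and are left out of these counts. The whole list had 9 higher and 5 lower (median 0.30).

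**Figure D2:**
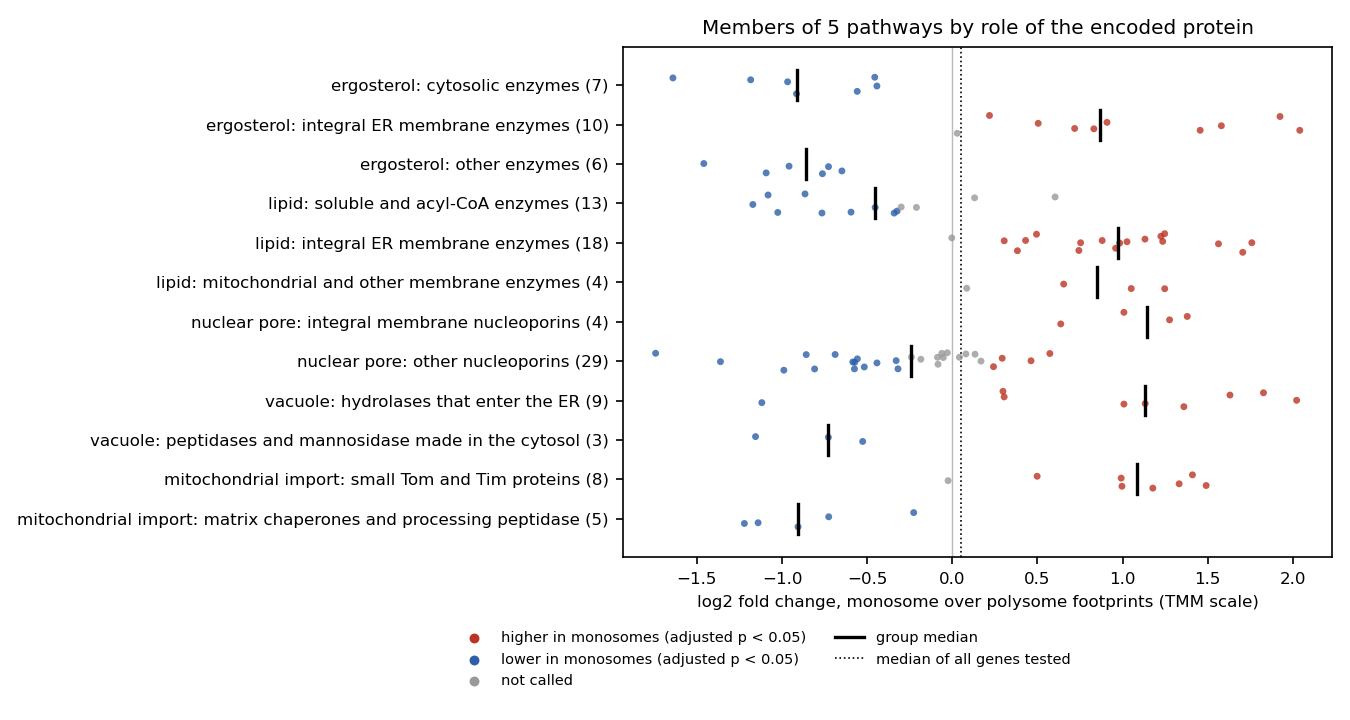
Log2 fold changes of monosome over polysome footprints (x axis) for members of 5 pathways or structures, grouped by the place or role of the protein (rows, number of genes in brackets); points are genes coloured by the edgeR call and bars group medians. Integral ER membrane enzymes of ergosterol synthesis (median 0.87) and lipid synthesis (0.97) lie to the right of their soluble counterparts (-0.91 and -0.45). The other 6 ergosterol enzymes, among them the membrane-bound ERG9 and ERG1, lie on the low side (-0.86). The groups were made after the values were seen, so their separation describes these genes and supports nothing.

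Coat proteins and SNAREs act in vesicle traffic between these membranes. Of 16 COPI and COPII coat proteins, which form transport vesicles, 14 were lower in monosomes and 0 higher with edgeR (median -0.63). With library totals, 8 were lower and 2 higher (median -0.18). SEC27, a COPI subunit, had 206.7 and 188.5 CPM in monosomes and 512.9 and 451.5 CPM in polysomes (-1.29, SE 0.11), and COP1 had a change of -1.01 (SE 0.11). SNAREs, most of them tail-anchored fusion proteins, were lower in 11 of 23 tested and higher in 6; their median was -0.16, and 0.30 on library totals. SEC9, a SNARE with no membrane span, was lowest (-1.22, SE 0.12), and USE1 of the ER was highest (0.93, SE 0.13).

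The vacuolar proton pump joins a soluble V1 part, which splits ATP, to a membrane V0 part, which carries protons. Of the 8 V1 genes, 6 were lower and 1 was higher (median -0.82). VMA2 had 455.2 and 392 CPM in monosomes and 1259.8 and 1114.8 CPM in polysomes (-1.49, SE 0.12), and the catalytic subunit gene VMA1 was close to it (-1.34, SE 0.13). VMA13 (-1.04), VMA4 (-0.90), VMA8 (-0.73) and VMA5 (-0.49) were also lower, VMA7 was higher (0.44, SE 0.10), and VMA10 had a change of 0.04 (SE 0.11). Of the 7 V0 genes, 3 were higher and 2 lower; their median was -0.04, and 0.41 on library totals. The higher ones encode the proteolipids of the rotor ring, VMA16 (0.64, SE 0.10), VMA11 (0.50, SE 0.10) and VMA3. VMA3 had 810.6 and 979.2 CPM in monosomes and 779.9 and 647.9 CPM in polysomes (0.33, SE 0.11), and its call was lost without monosome replicate 2 (0.22) or polysome replicate 2 (0.20). VMA6 (-0.84, SE 0.11), a V0 subunit with no membrane span, and VPH1 (-0.51, SE 0.11), a large multispan subunit, were lower. STV1 (-0.29, edgeR adjusted p = 0.0647) and VMA9 (-0.04, 0.41 with library totals) did not pass. Among the called genes of both parts, the higher ones were shorter than the lower ones. The higher genes were VMA7 of 357 nt, VMA3 of 483 nt, VMA11 of 495 nt and VMA16 of 642 nt. The lower genes ran from 702 nt (VMA4) to 3216 nt (VMA1). Not called were VMA9 of 395 nt and VMA10 of 507 nt, both shorter than VMA16, and STV1 of 2673 nt. The part of length in these differences was not tested.

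Several lists of membrane proteins had few footprints per mRNA in the undivided lysate, and others did not stand apart. As a median over the genes tested, log2 of global footprints over mRNA (both in CPM with 1 CPM added) was -2.69 for amino acid permeases, -2.59 for the other transporters, -2.38 for P-type ATPases and -2.06 for mannosyltransferases, against 0.15 over all genes. It was -1.84 for the ER membrane enzymes of ergosterol synthesis and -0.10 for the cytosolic ones, and -1.81 and -0.52 for the ER membrane and soluble enzymes of lipid synthesis. The translocon and oligosaccharyltransferase list, with 16 of 18 genes higher in monosomes, was at -0.51, and V0 subunits were at -0.41. Lists that were mostly lower in monosomes on the TMM scale had values like those 2. Purine and pyrimidine synthesis enzymes were at -0.65 and TCA cycle enzymes at -0.66. SNAREs were at 2.02, with a median mRNA level of 11.4 CPM per kb of gene. The global libraries held only 749057 and 552992 counts and the mRNA libraries 933252 and 672928. Ratios of lists with scarce mRNAs are therefore imprecise. The part of these ratios in the monosome differences was not tested.

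**Figure D3:**
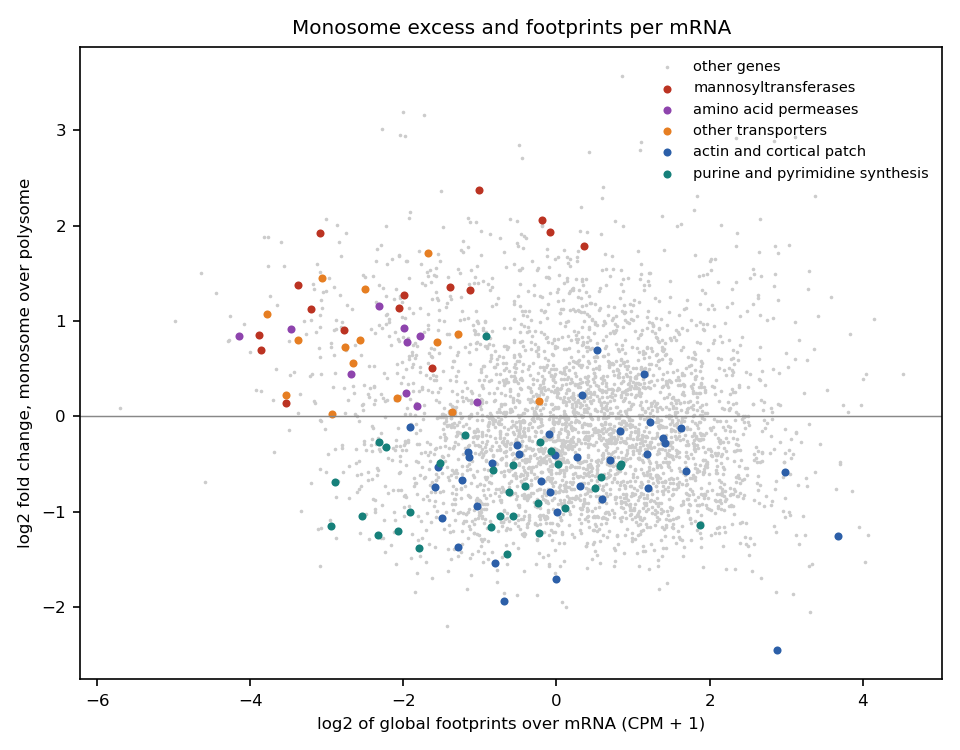
Log2 fold change of monosome over polysome footprints (y axis) against log2 of global footprints over mRNA (x axis, CPM + 1), for the 3750 tested genes that average 100 counts or more over the monosome and polysome libraries and at least 5 CPM of mRNA. Coloured points are 5 gene lists; most mannosyltransferases, permeases and other transporters lie in the upper left, and most purine and pyrimidine synthesis genes lie below 0 on the y axis.

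Cytosolic aminoacyl-tRNA synthetases, which charge tRNAs, were mostly lower. Of 21, 20 were lower in monosomes and 0 higher with edgeR (median -1.15). The 21 genes together gave 7410 and 6820 CPM in monosomes and 15800 and 14400 CPM in polysomes. DPS1, for aspartate, had 247.8 and 211.7 CPM in monosomes and 863.3 and 814.7 CPM in polysomes (change -1.87, SE 0.12, edgeR adjusted p = 4.32e-27). KRS1, for lysine, followed (-1.45, SE 0.12). MES1, for methionine, stood apart at 437.3 and 421.9 CPM in monosomes and 440.7 and 398.6 CPM in polysomes (change 0.03, SE 0.11, edgeR adjusted p = 0.799; 0.49 with library totals). The mitochondrial synthetases, nuclear-encoded and imported, differed in direction: 8 of 14 were higher and 0 lower (median 0.58), a count that became 5 without polysome replicate 2. MSM1, for methionine in mitochondria, had 14.1 and 15.4 CPM in monosomes and 3.66 and 3.32 CPM in polysomes (2.07, SE 0.24). Their mRNAs were scarce, with a median of 7.96 CPM per kb of gene, against 497 CPM per kb for the cytosolic synthetases and 21.2 CPM per kb over all genes.

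Nucleotide synthesis and TCA cycle enzymes were mostly lower too on the TMM scale. With library totals, 18 of 31 purine and pyrimidine synthesis enzymes were lower and 2 higher (median -0.30). For the 17 TCA cycle enzymes that scaling gave 7 lower and 3 higher (median -0.14). Of 31 purine and pyrimidine synthesis enzymes tested of 33, 29 were lower and 1 was higher (median -0.75). RNR4, a small subunit of ribonucleotide reductase, had 440.6 and 375.1 CPM in monosomes and 1173.4 and 1045.5 CPM in polysomes (-1.44, SE 0.12), and PRS5, a phosphoribosylpyrophosphate synthetase, was also lower (-1.38, SE 0.10). The higher member was ADE13, adenylosuccinate lyase, at 568.0 and 537.5 CPM in monosomes and 307.8 and 309.1 CPM in polysomes (change 0.84, SE 0.11, edgeR adjusted p = 2.29e-11). TCA cycle enzymes, made in the cytosol and mostly imported into the mitochondrial matrix, were lower in 14 of 17 and higher in 2 (median -0.59; 0 higher without monosome replicate 1, polysome replicate 1 or polysome replicate 2, and 1 without monosome replicate 2, each with 16 tested), with fumarase, FUM1, at 90.1 and 82.6 CPM in monosomes and 231.1 and 234.4 CPM in polysomes (-1.43, SE 0.10).

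The mitochondrial import machinery had members far apart on both sides, with 17 of 38 higher and 10 lower (median 0.24). The small Tom and Tim proteins, subunits of the outer membrane pore and chaperones of the intermembrane space, were higher in 7 of 8 (median 1.09). TOM6, of 186 nt, had 499.4 and 548.9 CPM in monosomes and 192.8 and 180.2 CPM in polysomes (1.49, SE 0.10), and TIM10 had a change of 0.99 (SE 0.10). Short genes as a whole were high: the median change was 1.12 among 161 genes of up to 300 nt. All 5 matrix chaperone and processing peptidase genes were lower (median -0.91), with HSP60 at 394.4 and 461.2 CPM in monosomes and 996.6 and 999.7 CPM in polysomes (-1.22, SE 0.12). SSC1, the matrix Hsp70, was alike (-1.14, SE 0.12).

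Actin genes were mostly lower on the TMM scale. Of 38 genes of the actin cytoskeleton and cortical patches, the sites of endocytosis, 30 were lower and 3 higher (median -0.51). With library totals, 15 were lower and 9 higher (median -0.06). ACT1, actin, had 1635.4 and 1624.0 CPM in monosomes and 4312.9 and 4107.0 CPM in polysomes (-1.37, SE 0.13). SAC6, the filament bundler fimbrin, had 104.1 and 86.5 CPM in monosomes and 321.3 and 295.6 CPM in polysomes (-1.70, SE 0.11). The higher members were the formin gene BNR1 (0.69, SE 0.16), the formin activator gene BUD6 (0.44, SE 0.14) and the Arp2/3 subunit gene ARC18 (0.23, SE 0.10). Of these, BUD6 lost its call without polysome replicate 1 (0.34), and ARC18 without monosome replicate 2 (0.15) or polysome replicate 2 (0.18). Among 27 genes of tubulins, motors and the DASH ring of kinetochores, 10 (37%) were higher and 9 (33.3%) lower. These shares are near the 36.6% and 33.5% of all genes. The median of -0.06 turned to 0.40 with library totals. Tubulins stood at the low end, with TUB2, beta-tubulin, at 168.0 and 141.1 CPM in monosomes and 557.1 and 526.0 CPM in polysomes (-1.81, SE 0.11) and TUB1 at -1.47 (SE 0.11). The short DASH genes DAD4 (1.75, SE 0.13) and DAD1 (1.53, SE 0.15) were at the high end.

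Nuclear machines were spread. Of 31 RNA polymerase subunits, 19 were lower and 6 higher (median -0.58), from RPC40 (-1.23, SE 0.10) to RPC10, a gene of 213 nt shared by the 3 polymerases (1.72, SE 0.10); 3 were higher without polysome replicate 2. Of 49 subunits of chromatin remodelling complexes, 25 were lower and 9 higher (median -0.32, 0.13 with library totals), with the AAA+ ATPase gene RVB1 at -1.25 (SE 0.10) and HTL1, a gene of 237 nt, at 1.79 (SE 0.18). Mediator, the bridge between activators and polymerase II, had 12 of 25 higher and 4 lower (median 0.15; 2 lower without monosome replicate 2), with SRB6 at 1.49 (SE 0.14) and MED6 at -0.62 (SE 0.14). Of 67 spliceosome proteins, 25 (37.3%) were higher and 20 (29.9%) lower, near the 36.6% and 33.5% of all genes (median 0.04). The helicase gene PRP28 was at -1.04 (SE 0.22) and RDS3 at 1.69 (SE 0.12). The lowest spliceosome gene was SYF2 (-1.07, SE 0.25), whose call was lost without monosome replicate 2 (-0.65). DNA replication proteins were lower in 25 of 48 and higher in 11 (median -0.30, 0.15 with library totals), with the helicase subunit gene MCM2 at -1.25 (SE 0.13) and DPB3, a small subunit of polymerase epsilon, at 1.17 (SE 0.14). tRNA modification and processing enzymes were lower in 28 of 52 and higher in 8 (median -0.32, 0.13 with library totals; 5 higher without monosome replicate 2), with IKI3, the large Elongator subunit, at -1.29 (SE 0.10) and the splicing endonuclease gene SEN2 at 1.15 (SE 0.16).

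Histones, which package DNA, were higher in 7 of 11 genes and lower in 3 (median 0.46). These genes are short, with a median length of 399 nt. Among all genes over 300 and up to 600 nt, 329 of 638 were higher and 134 lower (median 0.33). The part of length in the histone changes was not tested. HHT2, for histone H3, had 3596.2 and 3081.1 CPM in monosomes and 1167.0 and 1292.4 CPM in polysomes (1.44, SE 0.12), and HHT1, its second copy, had a change of 1.24 (SE 0.12). The copies resemble each other closely, so reads may be shared between them. The linker histone gene HHO1 (-0.61, SE 0.10), at 214.4 and 180.7 CPM in monosomes and 281.8 and 320.4 CPM in polysomes, and the centromeric variant CSE4 (-0.62, SE 0.15) were lower; with library totals neither passed (-0.16 each).

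Signalling, protein turnover and meiosis genes were on both sides. Of 41 nutrient and MAP kinase pathway genes, 22 were lower and 9 higher (median -0.28, 0.18 with library totals). GCN2, the kinase of translation initiation factor 2 that senses uncharged tRNA, had 15.5 and 15.1 CPM in monosomes and 32.6 and 33.8 CPM in polysomes (-1.12, SE 0.14). Ubiquitin ligase subunits of APC/C and SCF, which drive the cell cycle by proteolysis, were higher in 11 of 30 and lower in 5 (median 0.19). The share higher was 36.7% for these ligases and 35.7% for the autophagy genes below, near the 36.6% of all genes. The shares lower were 16.7% and 10.7%, against 33.5% of all genes. APC2 was at 1.44 (SE 0.16). SKP1, the SCF adaptor, had 58.7 and 62.1 CPM in monosomes and 187.6 and 172.3 CPM in polysomes (-1.57, SE 0.10). Autophagy genes were higher in 10 of 28 and lower in 3 (median 0.22; 1 lower without monosome replicate 1, polysome replicate 1 or polysome replicate 2), with ATG14, of the lipid kinase complex, at 1.99 (SE 0.21). Of 51 meiosis and sporulation genes, 13 passed the filter; 9 of these were higher and 2 lower (median 1.17), a count that rests on genes with enough monosome footprints to be tested. Leaving out any 1 library left 5 tested and 3 of them higher, and the fit of the 4 libraries alone gave 14 of 19 higher (median 1.52). REC107, a gene for meiotic recombination, had 30.5 and 26.8 CPM in monosomes and 9.68 and 9.97 CPM in polysomes (1.53, SE 0.16).

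Over all genes, the largest changes were taken among genes over 603 nt that averaged 100 counts or more and had no overlap between fractions. Only genes on the lists of glycolysis enzymes and translation factors were left out. Over all genes tested, 84.4% did not overlap. TPO4, a polyamine exporter of the plasma membrane, had 35.7 and 45.0 CPM in monosomes and 5.10 and 5.49 CPM in polysomes (change 2.94, SE 0.18, edgeR adjusted p = 3.93e-28). MRL1, a membrane protein related to mammalian mannose 6-phosphate receptors, had 37.3 and 27.9 CPM in monosomes and 4.18 and 5.64 CPM in polysomes (2.71, SE 0.19). PER33, a membrane protein of the ER and nuclear pore related to POM33, had 124.3 and 110.7 CPM in monosomes and 26.0 and 28.5 CPM in polysomes (2.11, SE 0.11). The 12 leaders also held RCE1, the ER protease of prenylated proteins (2.36, SE 0.17), NEM1, a nuclear envelope phosphatase that acts on Pah1 (2.20, SE 0.18), and SEC59, dolichol kinase (2.08, SE 0.17). No share of membrane proteins among all genes was computed. YJL118W (3.01), YLR036C (2.56), MNN1, YBL029W (2.23), ECM3 (2.08) and CBP1, which stabilises the mitochondrial cytochrome b mRNA (2.07), complete them.

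The same rule gave 12 genes that were lower in monosomes. RAD23, a shuttle to the proteasome, had 84.2 and 71.2 CPM in monosomes and 310.8 and 306.6 CPM in polysomes (change -2.00, SE 0.10, edgeR adjusted p = 5.35e-33). YRB1, a Ran-binding protein of nuclear transport, had 191.2 and 182.0 CPM in monosomes and 717.7 and 636.5 CPM in polysomes (-1.86, SE 0.11). RTF1, a subunit of the Paf1 transcription elongation complex, had 32.6 and 33.6 CPM in monosomes and 116.8 and 121.4 CPM in polysomes (-1.84, SE 0.11). All 3 had more than 3 times the level in polysomes in each library. NOP1 (-1.95), ABP1 (-1.94), DPS1, TUB2, DRS1, a helicase of large subunit assembly (-1.80), MLP1, EMI2 (-1.73), SAC6 and BUD27 (-1.69) complete the set.

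**Figure D4:**
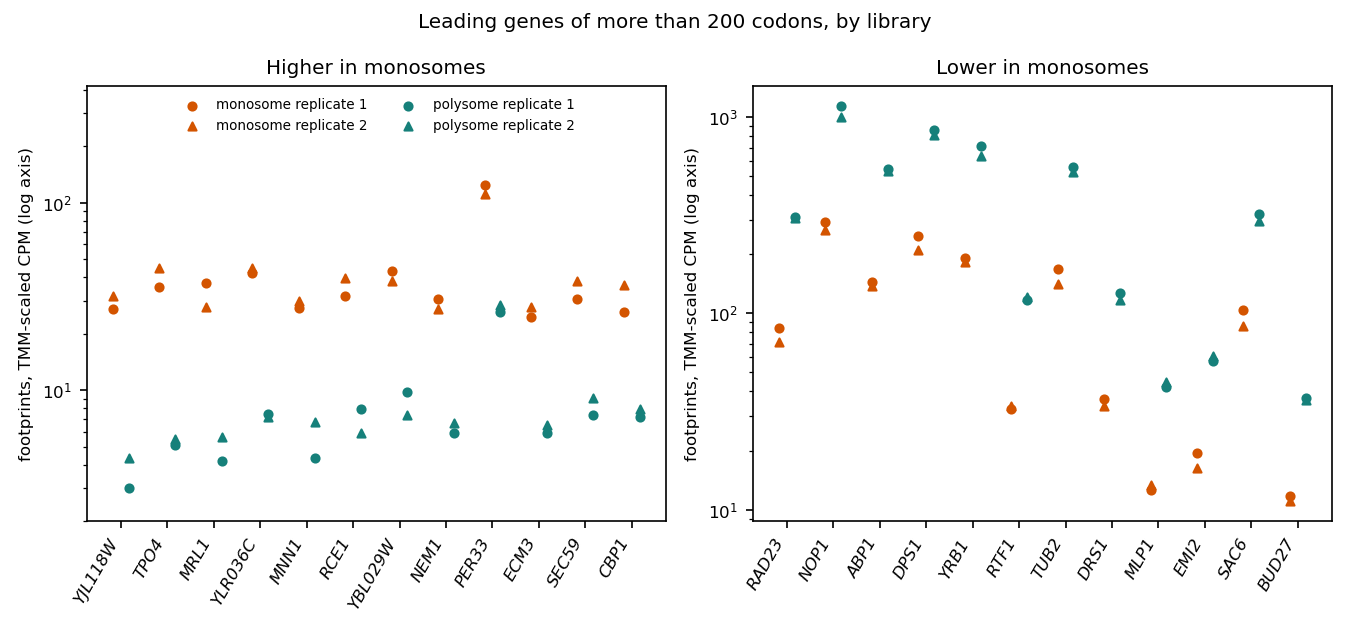
TMM-scaled CPM (log axis) in each monosome and polysome library for the 12 genes over 603 nt with the largest change each way; circles are replicate 1 and triangles replicate 2. The replicates of a fraction lie close together and the fractions are apart in every gene, by the rule that chose them.

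Paralogues are pairs of genes with related proteins. Of 54 pairs, 53 had both genes tested. Both members were called in the same direction in 30 pairs and in opposite directions in 6. The median difference between the changes was 0.46. Over all genes tested, 36.6% were called higher and 33.5% lower, and the share of equal calls among unrelated genes was not computed. Near-identical members may also share reads. In 11 pairs the difference exceeded 1. The acetyl-CoA synthetases were farthest apart: ACS1, which glucose represses, had 5.58 and 6.32 CPM in monosomes and 0.654 and 0.867 CPM in polysomes, from 5 and 6 polysome counts (2.94, SE 0.42), whereas ACS2 had 235.1 and 214.2 CPM in monosomes and 588.7 and 522.6 CPM in polysomes (-1.31, SE 0.11). Citrate synthase of the glyoxylate cycle, CIT2, had 503.4 and 606.7 CPM in monosomes and 182.7 and 205.2 CPM in polysomes (1.52, SE 0.11), whereas CIT1 of the TCA cycle had 65.7 and 65.7 CPM in monosomes and 87.5 and 102.2 CPM in polysomes (-0.53, SE 0.10; -0.08 with library totals, which did not pass). The kinase KSS1 of the filamentous growth pathway was higher (0.97, SE 0.12), and FUS3, its paralogue of the mating pathway, lower (-0.56, SE 0.11; -0.11 with library totals, which did not pass). The nucleoporins ASM4 (0.57) and NUP53 (-0.57; -0.12 with library totals) also parted.

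Other pairs differed mainly in size. OST6, an alternative subunit of the oligosaccharyltransferase, changed by 1.99 (SE 0.17), against 0.58 (SE 0.10) for OST3. PHO87, a low-affinity phosphate transporter, changed by 1.71 (SE 0.18), against 0.19 (SE 0.12) for PHO90, and SMF1, a manganese transporter, by 1.68 (SE 0.19), against 0.56 (SE 0.16) for SMF2. TPM1, the major tropomyosin, and TPM2 were both lower, at -2.45 (SE 0.11) and -1.25 (SE 0.12). Taken per replicate number, the difference within each of these pairs was 1.34 and 1.37 for OST6 over OST3, 1.08 and 1.84 for PHO87 over PHO90, 0.74 and 1.38 for SMF1 over SMF2, and 1.29 and 1.13 for TPM2 over TPM1. No test of the difference between paralogues was run.

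**Figure D5:**
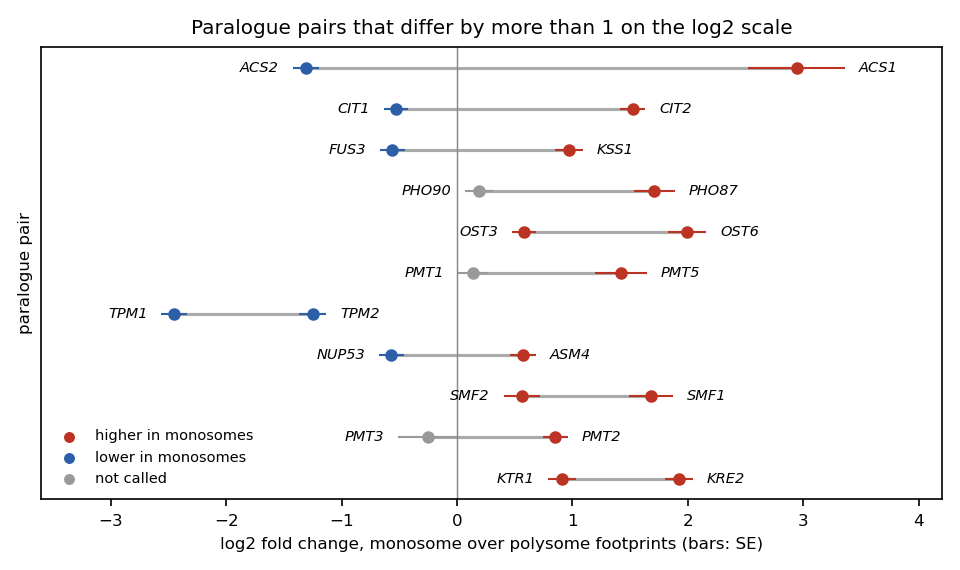
Log2 fold changes of monosome over polysome footprints (x axis, bars are SE) of both members of the 11 paralogue pairs that differ by more than 1, joined by a line and coloured by the edgeR call. ACS1 and ACS2 (2.94 and -1.31) are farthest apart, and TPM1 and TPM2 lie together on the low side.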

How the data were processed

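The authors deposited 1 table of raw counts per gene for 8 libraries; per the submitters' processing notes it was made with TopHat, Bowtie and HTSeq on sacCer3. Tool versions, strandedness and how multiply mapping reads were counted are not given in the sources used here, so reads of near-identical genes may be split. The deposited fold changes and p-values were not used. Footprints of 26 to 32 nt were sequenced, per the labels.

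All 8 libraries in 4 groups entered 1 edgeR 4.0.16 fit (R 4.3.3; TMM factors, filterByExpr, quasi-likelihood F test, Benjamini-Hochberg adjustment over 5336 genes, threshold 0.05). Symbols and lengths came from the RefSeq R64 table, which matched 6008 of 6692 identifiers; lengths include introns. The fit was tested on simulated counts in which few genes changed between the fractions. In the data 70.2% of genes were called, so that test cannot vouch for the TMM scale. Lists are described by counts and medians, without a test.

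The comparison, the 33 lists and the pairs were chosen with earlier results of these data known. Named genes are the 12 largest changes each way (length over 603 nt in place of a planned 200 residues, mean of at least 100 counts), up to 2 called members each way per list (mean of at least 50 counts), all V-ATPase genes and pairs differing by over 1. Other members named in the text, and the splits by role, were chosen after their values were seen. Classes by predicted membrane segments were planned but not analysed here. Replicates within a group were not the same library: chi-square over its degrees of freedom was 5.56 for monosomes and 4.48 for polysomes.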

Additional observations from a re-analysis of the deposited data

How the results depend on the processing

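Scaled by library totals alone, 3030 genes were higher and 867 lower in monosomes, against 1954 and 1790 with TMM, and 9 of 32 list medians changed sign. A mean of at least 100 counts turned 4 (V0, SNAREs, tubulins and nuclear pore), and leaving out monosome replicate 1 (spliceosome), monosome replicate 2 or polysome replicate 1 (tubulins) turned 1 each. With library totals SSS1 (0.19), IDS2 (0.12), UME6 (0.20), ATG20 (0.01) and VMA9 (0.41) turned positive; the construction of the scaling, which moved every list median by 0.45 or 0.46, shows the cause. RLE size factors gave 2009 higher and 1718 lower, DESeq2 1684 and 1475, no low-count filter 1941 and 1877, a mean of at least 100 counts 1513 and 1399, and the 4 libraries alone 2006 and 1836. Leaving out 1 library gave 1607 to 1765 higher and 1535 to 1642 lower. In none of these settings other than library totals was a gene called in the opposite direction. Same-numbered libraries shared little (correlation of deviations 0.0577), which cannot show whether they came from the same culture or gradient. With a replicate block in the 4 libraries alone the calls were 2026 and 1887. DESeq2 called 13 of 41 nutrient and MAP kinase genes and 0 of 28 autophagy genes lower, against 22 and 3 with edgeR; the cause was not tested. A mean of at least 100 counts left 1 of 14 mitochondrial synthetases and 16 of 28 mannosyltransferases, all higher. Protein classes by predicted membrane segments, with their alternative cut-off, were not run. Low counts limit the precision for meiosis genes and for ACS1.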
